A study of Homo sapiens with 4 samples.

Results

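The tetraspanin family was described in RNA-seq gene counts of SK-N-BE(2), an established line from a human neuroblastoma in which MYCN is amplified. The cells carried an shRNA against CDK5RAP3 (shCDK5RAP3, 2 libraries) or a control shRNA (shControl, 2 libraries). The members were all protein-coding rows of the count table whose identifier carries a TSPAN symbol with a number in GENCODE 29, together with CD9, CD37, CD53, CD63, CD81, CD82, CD151, UPK1A, UPK1B, ROM1 and PRPH2. This rule gave 33 genes among 64252 rows, of which 24 had enough counts to be tested among 18775 tested genes. The sources used here give neither the number of hairpins nor whether the 2 libraries of a group were separate cultures, so the p-values rest on library-to-library spread alone, which may be technical.

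Tetraspanins are small proteins that cross the membrane 4 times and carry a small and a large extracellular loop. They bind each other and a few preferred partner proteins, and so gather integrins, immunoglobulin-like proteins, proteases and receptors into patches of membrane. CD9, CD81 and CD63 are widely used as surface markers of extracellular vesicles. The TspanC8 group, named for the cysteines of its large loop, carries the protease ADAM10 out of the endoplasmic reticulum and steers which substrates it cuts.

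The libraries held 28653689 and 30138393 counts in shCDK5RAP3 cells, and 28721740 and 28755837 counts in shControl cells. A gene with no counts in a library could have had up to 3 counts there, or 0.101 to 0.105 CPM (each count set against its library's TMM-scaled total), a floor that covers counting error only. CDK5RAP3 itself had 58.5 and 57.1 CPM in shCDK5RAP3 cells, against 87.4 and 98.6 CPM in shControl cells, a level of 62.1% of control (log2 fold change -0.69, SE 0.08, edgeR adjusted p = 0.000163). Of the noradrenergic neuroblastoma markers, all 9 were expressed, 8 of them lower in shCDK5RAP3 cells, as were 21.8% of all tested genes.

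The family moved mostly one way. Of the 24 tested tetraspanins, 15 were lower in shCDK5RAP3 cells, 0 were higher and 9 did not pass an adjusted p of 0.05 (edgeR quasi-likelihood test, adjusted over all tested genes). Among all tested genes 21.8% were lower and 19.7% higher by the same rule, and among tested protein-coding genes 26.4% and 22.7%, so the 62.5% of tetraspanins that were lower lay above the background and the 0 higher below it. No tetraspanin was higher at an unadjusted p under 0.05 either, nor with DESeq2 or limma-trend, while 16 were lower at that unadjusted level. The share of all tested genes at the unadjusted level is not given here, so those counts have no background beside them. The median log2 change was -0.42 over the 24 tested members and -0.00 over all tested genes. For 17 of the 24, every shCDK5RAP3 value lay under every shControl value, as for 36.4% of all tested genes. A fall of at least 2-fold that also passed an adjusted p of 0.05 was seen in 6 of the 24 (25.0%), against 7.29% of all tested genes. CD82 also fell by more than 2-fold (log2 change -1.09) but did not pass. No statistical test was made of the family as a set, and its members were chosen with earlier results of these data known.

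**Figure D1:**
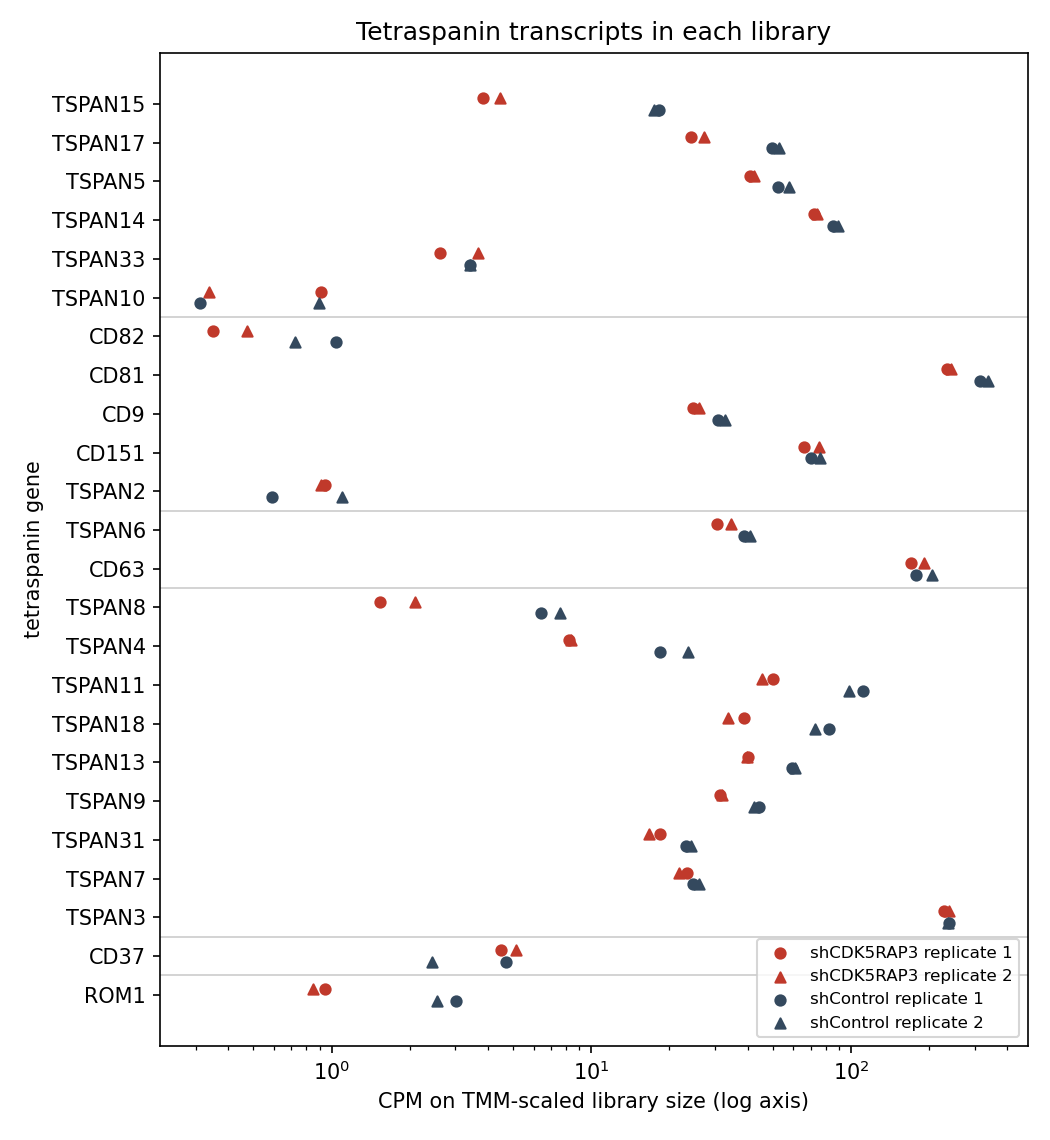
CPM of each of the 24 tested tetraspanins (rows, grouped by role) in each library on a log axis, with shCDK5RAP3 libraries in red and shControl libraries in dark blue, circles for replicate 1 and triangles for replicate 2. Red points lie left of both blue points in 17 rows, with the widest gaps in TSPAN15, TSPAN8 and ROM1.

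Added up, tetraspanin transcripts made up 1117 and 1165 CPM in shCDK5RAP3 cells, against 1457 and 1513 CPM in shControl cells, or 76.8% of control. The mean sum fell by 344 CPM, of which CD81 fell by 87.3 CPM, TSPAN11 fell by 56.8 CPM and TSPAN18 fell by 41.2 CPM. CD63, TSPAN3 and CD81 together held 57.1% of the family's CPM in shCDK5RAP3 cells and 50.8% in shControl cells. Per kb of annotated exon these 3 were also the most abundant members, with CD63 at 68.6 CPM per kb in shCDK5RAP3 cells and 72.6 in shControl cells, CD81 at 32.1 and 43.9, and TSPAN3 at 27.4 and 27.9. They stayed the top 3 when the median length of the protein-coding transcripts was used in place of all exons, although CD81 then came first, so the order of CD63 and CD81 depends on the length used.

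The 6 members that passed with falls of at least 2-fold were TSPAN15, TSPAN8, ROM1, TSPAN4, TSPAN11 and TSPAN18. The RefSeq promoter table (GRCh38.p14) held an entry for 25 of the 33 members, and for all of these 6 but TSPAN18. The 250 bases before the annotated start of the other 5 follow, 5′ to 3′ on the gene's strand, to set side by side the start regions of the members that fell furthest. They lie at chr10:69451215-69451464 (plus strand), chr12:71158000-71158249 (minus strand), chr11:62613007-62613256 (plus strand), chr11:842602-842851 (plus strand) and chr12:30926498-30926747 (plus strand). The ROM1, TSPAN8 and TSPAN11 windows lie inside the GENCODE 29 gene spans, the TSPAN4 window runs past the GENCODE start, and the TSPAN15 window ends before it. Capitals mark matches on either strand to the GC box GGGCGG, the CCAAT box CCAAT and the AP-1 motif TGANTCA.
TSPAN15: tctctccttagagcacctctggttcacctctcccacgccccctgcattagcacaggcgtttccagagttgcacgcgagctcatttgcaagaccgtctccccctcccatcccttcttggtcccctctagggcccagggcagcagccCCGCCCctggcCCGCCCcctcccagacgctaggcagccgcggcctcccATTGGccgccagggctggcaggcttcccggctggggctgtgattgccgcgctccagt
TSPAN8: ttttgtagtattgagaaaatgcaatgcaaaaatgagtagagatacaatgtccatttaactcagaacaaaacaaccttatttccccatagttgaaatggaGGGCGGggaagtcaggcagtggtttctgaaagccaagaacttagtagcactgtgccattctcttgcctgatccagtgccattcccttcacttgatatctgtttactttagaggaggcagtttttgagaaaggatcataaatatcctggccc
ROM1: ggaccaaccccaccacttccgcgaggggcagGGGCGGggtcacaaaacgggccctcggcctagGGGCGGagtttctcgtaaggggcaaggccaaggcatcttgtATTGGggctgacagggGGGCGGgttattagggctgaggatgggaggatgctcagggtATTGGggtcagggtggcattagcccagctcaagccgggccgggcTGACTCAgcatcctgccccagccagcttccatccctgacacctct
TSPAN4: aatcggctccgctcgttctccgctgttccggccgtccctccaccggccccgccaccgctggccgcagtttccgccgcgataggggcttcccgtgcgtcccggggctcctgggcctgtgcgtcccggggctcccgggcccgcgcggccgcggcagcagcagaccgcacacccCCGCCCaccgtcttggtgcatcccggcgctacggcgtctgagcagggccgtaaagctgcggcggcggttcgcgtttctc
TSPAN11: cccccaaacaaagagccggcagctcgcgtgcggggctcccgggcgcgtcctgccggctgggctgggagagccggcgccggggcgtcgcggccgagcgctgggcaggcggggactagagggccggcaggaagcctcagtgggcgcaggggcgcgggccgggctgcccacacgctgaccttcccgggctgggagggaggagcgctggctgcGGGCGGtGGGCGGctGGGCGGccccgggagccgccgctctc

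All 5 of these windows held a GC box, which 42.6% of the 35116 RefSeq promoter windows of the same length also held. The base composition of the windows was uneven. The TSPAN11 window was 80.0% G and C and the TSPAN4 window 74.8%, while that of TSPAN8 was 40.8%, with 1 CG pair in its 250 bases. A CCAAT box was present in TSPAN15 and ROM1, against 32.0% of all windows, and the AP-1 motif in ROM1, against 6.57%. None of the 5 held the E-box CACGTG (6.35% of all windows), the TATA box TATAAA (10.7%), the homeobox word TAATTA (4.35%) or the GATA word AGATAA (9.17%). Over the 25 members with an entry, 13 (52.0%) held a GC box, and 2, CD63 and TSPAN6, held an E-box. These are matches of letters in a fixed window and say nothing about binding. Matches of different motifs could overlap.

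Among the TspanC8 members, which pair with ADAM10, 4 of the 6 were lower in shCDK5RAP3 cells and the other 2 did not pass. By the same rule 21.8% of all tested genes were lower. TSPAN15, the member known for promoting the cleavage of N-cadherin by ADAM10, had the largest fall of the family (ENSG00000099282, GRCh38 chromosome 10, 69451473 to 69507669). It had 109 and 132 counts in shCDK5RAP3 cells, against 528 and 509 in shControl cells. As CPM this was 4.14 ± 0.456 in shCDK5RAP3 cells and 17.9 ± 0.525 in shControl cells (SD, n = 2 each), or 23.2% of control, with a log2 change of -2.11 (SE 0.15, edgeR adjusted p = 1.62e-05). The groups were far apart relative to the spread within them.

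TSPAN17 (ENSG00000048140, chromosome 5, 176647387 to 176659054) had 24.3 and 27.2 CPM in shCDK5RAP3 cells, against 49.7 and 52.6 CPM in shControl cells, a log2 change of -0.99 (SE 0.09, edgeR adjusted p = 5.7e-05). Its close relative TSPAN5 had 40.8 and 42.3 CPM in shCDK5RAP3 cells, against 52.5 and 57.7 CPM in shControl cells, a smaller change of -0.41 (SE 0.08, edgeR adjusted p = 0.00373). TSPAN14 had 72.2 and 73.8 CPM in shCDK5RAP3 cells, against 85.1 and 89.4 CPM in shControl cells, a change of -0.26 (SE 0.07, edgeR adjusted p = 0.0125), the smallest that passed in the family. In all 3 genes both shCDK5RAP3 values lay under both shControl values, as for 36.4% of all tested genes. Leaving out shCDK5RAP3 replicate 1 ended the calls of TSPAN5 (edgeR adjusted p = 0.0625) and TSPAN14 (0.134), as did leaving out shCDK5RAP3 replicate 2 (0.0576 for TSPAN5, 0.1 for TSPAN14). TSPAN33, known from the erythroid lineage, had 2.63 and 3.65 CPM in shCDK5RAP3 cells, against 3.42 and 3.41 CPM in shControl cells (log2 change -0.12, SE 0.24). TSPAN10 was near the detection limit, with 26 and 10 counts in shCDK5RAP3 cells and 9 and 26 counts in shControl cells, so its groups overlapped widely.

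The unequal falls changed the make-up of the group. As a share of the summed TspanC8 CPM per kb of annotated exon, TSPAN15 made up 8.60% and 9.30% in the shCDK5RAP3 libraries, against 23.3% and 21.4% in the shControl libraries. TSPAN5 held 32.8% and 31.4% in shCDK5RAP3 cells, against 23.9% and 25.1% in shControl cells, and TSPAN14 held 24.1% and 22.8% in shCDK5RAP3 cells, against 16.1% and 16.2% in shControl cells. The summed level was 17.4 CPM per kb in shCDK5RAP3 cells and 30.2 in shControl cells. With the median transcript length as divisor the shares of TSPAN15 were 2.66% and 2.99% in shCDK5RAP3 cells, against 9.13% and 8.30% in shControl cells, and TSPAN14 was then the most abundant TspanC8 transcript in every library, because GENCODE gives it a 3′ UTR of 15147 bases that counts fully in the first scale. On this second scale TSPAN5 held 21.2% and 21.1% in shCDK5RAP3 cells, against 19.6% and 20.4% in shControl cells, a smaller rise. TSPAN14 held 62.0% and 60.8% in shCDK5RAP3 cells, against 52.4% and 52.1% in shControl cells. The divisors are the same in both groups and TSPAN15 fell furthest, so its share falls with any lengths. The order of the other members depended on the length used. The shares are descriptions, with no test.

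**Figure D2:**
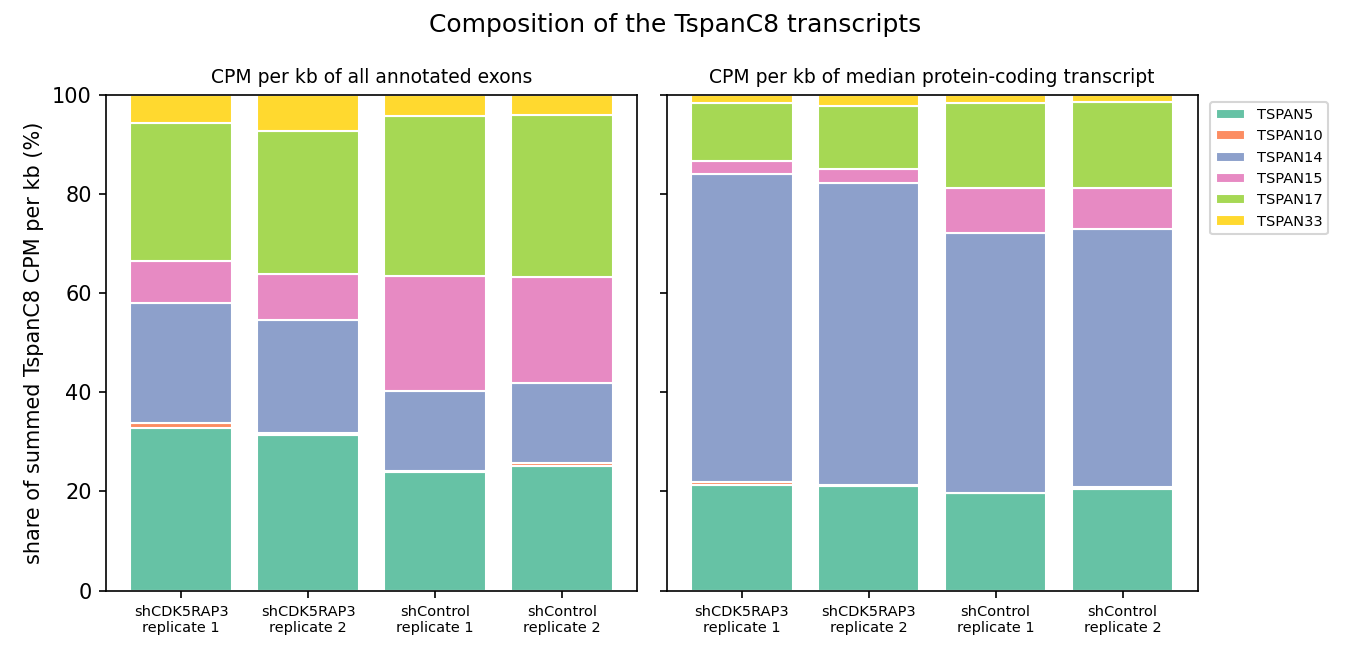
Stacked bars of the share (%) of each TspanC8 gene in the summed TspanC8 CPM per kb of each library, shCDK5RAP3 libraries left of shControl libraries; the left panel divides by all annotated exon bases and the right panel by the median protein-coding transcript. The TSPAN15 segment is smaller in both shCDK5RAP3 bars on either scale.

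Transcripts of the protease itself were called higher, though not in every setting. ADAM10 had 141 and 133 CPM in shCDK5RAP3 cells, against 116 and 114 CPM in shControl cells (log2 change 0.25, SE 0.06, edgeR adjusted p = 0.012), a call lost without shCDK5RAP3 replicate 1 (0.128), without shCDK5RAP3 replicate 2 (0.0733) and without a filter on low counts (0.0551). Over all tested genes, 19.7% were higher and 21.8% lower. Of 15 tested genes of ADAM10 shedding and the γ-secretase that cuts the stubs left behind, 3 were higher and 7 lower. Another 5 did not pass, and the median log2 change was -0.26. The number higher was 1 without shCDK5RAP3 replicate 1 or replicate 2 and 0 without a filter, while the number lower was 7 or 8 in every alternative. The furthest falls were in the presenilin gene PSEN2 (1.61 and 1.49 CPM in shCDK5RAP3 cells, against 5.67 and 5.37 in shControl cells), the membrane-bound chemokine CX3CL1 (log2 change -1.57), the adhesion molecule L1CAM (-1.08) and the receptor NOTCH3 (-0.94), the last 3 being ADAM10 substrates. N-cadherin, CDH2, had 203 and 189 CPM in shCDK5RAP3 cells, against 280 and 263 CPM in shControl cells, a log2 change of -0.47 (SE 0.07, edgeR adjusted p = 0.000559).

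Of the surface members, CD81 and CD9 were lower by modest amounts. CD81, an entry receptor of hepatitis C virus, had 233 and 242 CPM in shCDK5RAP3 cells, against 313 and 337 CPM in shControl cells (log2 change -0.45, SE 0.06, edgeR adjusted p = 0.000562). CD9, which eggs need for fusion with sperm, had 24.6 and 25.9 CPM in shCDK5RAP3 cells, against 30.6 and 32.8 CPM in shControl cells (log2 change -0.33, SE 0.09, edgeR adjusted p = 0.0205). In both genes the shCDK5RAP3 values lay under the shControl values, as for 36.4% of all tested genes. The CD9 call was lost without a filter on low counts (0.0669), without shCDK5RAP3 replicate 1 (0.148), without shCDK5RAP3 replicate 2 (0.0957) and without shControl replicate 2 (0.0804).

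CD151, the tetraspanin of laminin-binding integrins, overlapped between groups, with 65.9 and 75.6 CPM in shCDK5RAP3 cells against 70.4 and 76.0 CPM in shControl cells (log2 change -0.05, SE 0.08). CD82, known as a metastasis suppressor, had 10 and 14 counts in shCDK5RAP3 cells, against 30 and 21 counts in shControl cells, and its log2 change of -1.09 (SE 0.46) did not pass (edgeR adjusted p = 0.092). TSPAN2, best known from oligodendrocytes, had 27 and 27 counts in shCDK5RAP3 cells, within the range of 17 and 32 counts in shControl cells. At about 1 CPM or less, a change of the size seen in CD81 was not detectable in CD82 or TSPAN2.

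The immunoglobulin-like proteins IGSF8 (EWI-2) and PTGFRN (EWI-F) are the closest known partners of CD9 and CD81, and their transcripts did not move alike. IGSF8 had 5.29 and 5.21 CPM in shCDK5RAP3 cells, against 18.9 and 19.5 CPM in shControl cells, or 27.3% of control (log2 change -1.87, SE 0.14, edgeR adjusted p = 1.62e-05). PTGFRN had 65.7 and 59.5 CPM in shCDK5RAP3 cells, against 58.3 and 52.4 CPM in shControl cells, a change of 0.18 that did not pass (SE 0.08, edgeR adjusted p = 0.124), though it did without shControl replicate 1 (0.0493) and with a replicate block (0.0293). The difference between the genes was not tested. Over all tested genes, 21.8% were lower and 19.7% higher. Of 17 tested adhesion partners, 7 were lower, 1 was higher and 9 did not pass, with a median log2 change of -0.03. The number lower was 3 without shCDK5RAP3 replicate 1, 4 without shCDK5RAP3 replicate 2, 4 without shControl replicate 1, 3 without a filter on low counts and 3 at an adjusted p of 0.01. The number higher was 2 with a replicate block, and 0 with DESeq2, without a filter, at 0.01 and without any 1 library other than shControl replicate 1. Besides IGSF8 the furthest were the hyaluronan receptor CD44 (67.7 and 70.7 CPM in shCDK5RAP3 cells, against 152 and 148 in shControl cells), EPCAM (log2 change -0.88) and CD101 (-1.51). CD101 had under 1 CPM and lost its call without any 1 library (edgeR adjusted p from 0.085 to 0.209), and EPCAM lost its call without shCDK5RAP3 replicate 1 (0.0961) and without a filter on low counts (0.0696). The integrin chain ITGB1 was level, at 360 and 377 CPM in shCDK5RAP3 cells and 377 and 358 CPM in shControl cells.

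**Figure D3:**
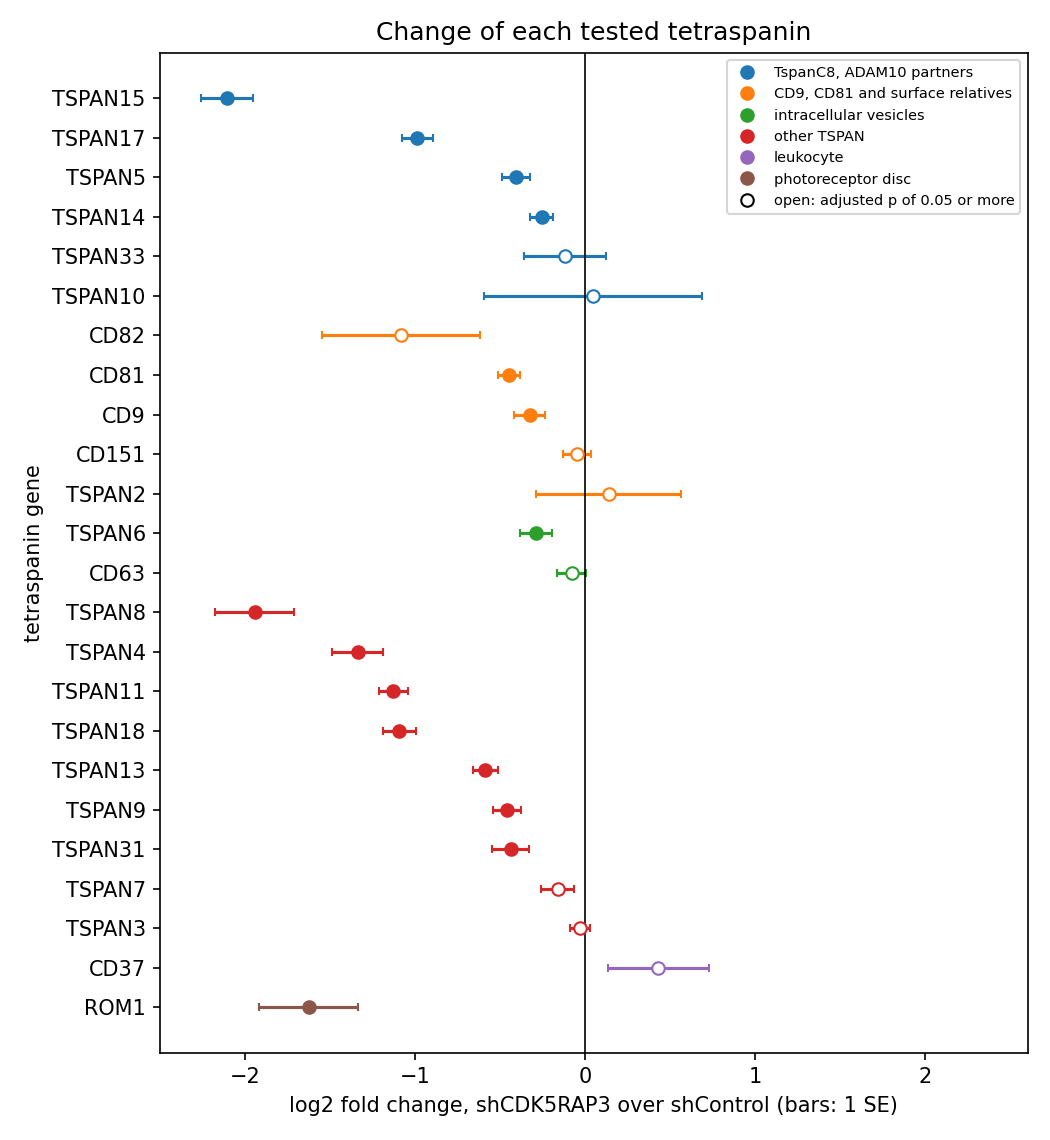
Log2 fold change (shCDK5RAP3 over shControl) of each tested tetraspanin with 1 SE, coloured by role; filled points had an adjusted p under 0.05. All 15 filled points lie left of 0, from -0.26 in TSPAN14 to -2.11 in TSPAN15.

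Among the members of intracellular vesicles, CD63, the marker of late endosomes and lysosomes, overlapped between groups. It had 170 and 191 CPM in shCDK5RAP3 cells, against 177 and 205 CPM in shControl cells (log2 change -0.08, SE 0.09, edgeR adjusted p = 0.487). TSPAN6, a binder of the vesicle adaptor syntenin, had 30.4 and 34.4 CPM in shCDK5RAP3 cells, against 38.7 and 40.8 CPM in shControl cells (log2 change -0.29, SE 0.09, edgeR adjusted p = 0.0338). This was the least stable of the 15 calls, lost with DESeq2 (0.0645), with upper-quartile factors (0.0546), without a filter (0.128), without either shCDK5RAP3 library (0.254 without replicate 1, 0.0725 without replicate 2) and without shControl replicate 2 (0.101). Of 24 tested genes of extracellular vesicle formation, 5 were higher, 6 lower and 13 did not pass, with a median of -0.03. These numbers lay near the shares over all tested genes, 19.7% higher and 21.8% lower. The leading changes were in the secretory GTPase RAB27B (14.4 and 13.5 CPM in shCDK5RAP3 cells, against 44.8 and 39.5 in shControl cells), the syndecans SDC1 (log2 change -0.84) and SDC4 (-0.82), and the sphingomyelinase SMPD3 (-0.69). SMPD3 lost its call when either shCDK5RAP3 library was left out (edgeR adjusted p = 0.0619 without replicate 1, 0.0617 without replicate 2), and SDC4 lost its call without a filter on low counts (0.0501). The syntenin gene SDCBP itself had a log2 change of -0.00 (SE 0.07).

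**Figure D4:**
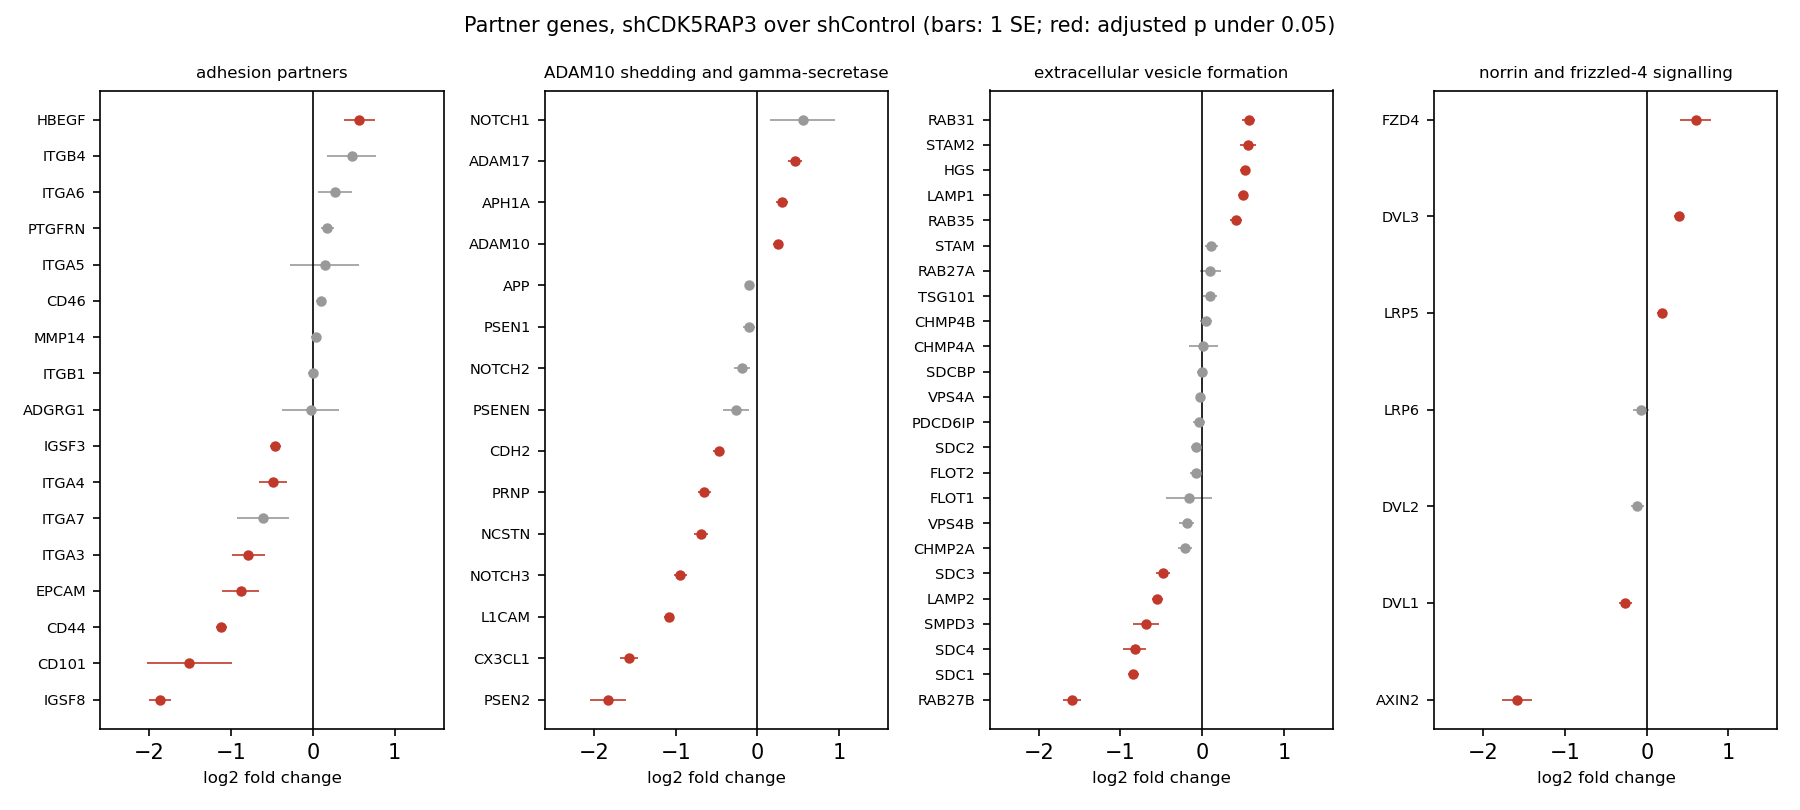
Log2 fold change (shCDK5RAP3 over shControl) with 1 SE of the tested genes of 4 partner lists, red where the adjusted p was under 0.05. Falls reach further than rises in all 4 panels, led by IGSF8, PSEN2, RAB27B and AXIN2.

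The largest role group held the other TSPAN genes, and 7 of its 9 tested members were lower, against 21.8% of all tested genes. TSPAN8, known from digestive-tract tumours, had 44 and 62 counts in shCDK5RAP3 cells, against 186 and 221 counts in shControl cells (ENSG00000127324, chromosome 12, 71125085 to 71441898). As CPM this was 1.82 ± 0.392 in shCDK5RAP3 cells and 7.02 ± 0.829 in shControl cells (SD, n = 2 each), a log2 change of -1.94 (SE 0.23, edgeR adjusted p = 0.00022). TSPAN4, the tetraspanin of migrasomes, the vesicles left on the retraction fibres of moving cells, had 8.20 and 8.35 CPM in shCDK5RAP3 cells, against 18.3 and 23.6 CPM in shControl cells (log2 change -1.34, SE 0.15, edgeR adjusted p = 0.000164). The shControl libraries of TSPAN4 were apart from each other, yet both lay at more than 2-fold above either shCDK5RAP3 library.

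TSPAN11 and TSPAN18 were both well expressed and fell by about the same factor. TSPAN11 had 50.2 and 45.4 CPM in shCDK5RAP3 cells, against 111 and 98.0 CPM in shControl cells (log2 change -1.13, SE 0.09, edgeR adjusted p = 2.01e-05). TSPAN18, which supports the store-operated calcium channel ORAI1 in endothelium, had 38.8 and 33.7 CPM in shCDK5RAP3 cells, against 82.0 and 72.9 CPM in shControl cells (log2 change -1.09, SE 0.09, edgeR adjusted p = 3.89e-05). In both genes replicate 1 was the higher library of each group, a difference well within the gap between groups.

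Smaller falls followed in this group. TSPAN13 had 40.1 and 39.7 CPM in shCDK5RAP3 cells, against 59.2 and 60.9 CPM in shControl cells (log2 change -0.59, SE 0.07, edgeR adjusted p = 0.000293). TSPAN9, found on platelets, had 31.2 and 31.7 CPM in shCDK5RAP3 cells, against 44.4 and 42.3 CPM in shControl cells (log2 change -0.46, SE 0.08, edgeR adjusted p = 0.00213). TSPAN31, a gene amplified with its neighbour CDK4 in sarcomas, had 18.4 and 16.6 CPM in shCDK5RAP3 cells, against 23.2 and 24.3 CPM in shControl cells (log2 change -0.44, SE 0.11, edgeR adjusted p = 0.0101), and lost its call without shCDK5RAP3 replicate 2 (0.106). The abundant TSPAN3 and the neuronal TSPAN7, a gene of X-linked intellectual disability, did not pass. TSPAN3 had 228 and 238 CPM in shCDK5RAP3 cells, against 238 and 237 CPM in shControl cells (log2 change -0.03, SE 0.06), and TSPAN7 had a log2 change of -0.16 (SE 0.10).

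**Figure D5:**
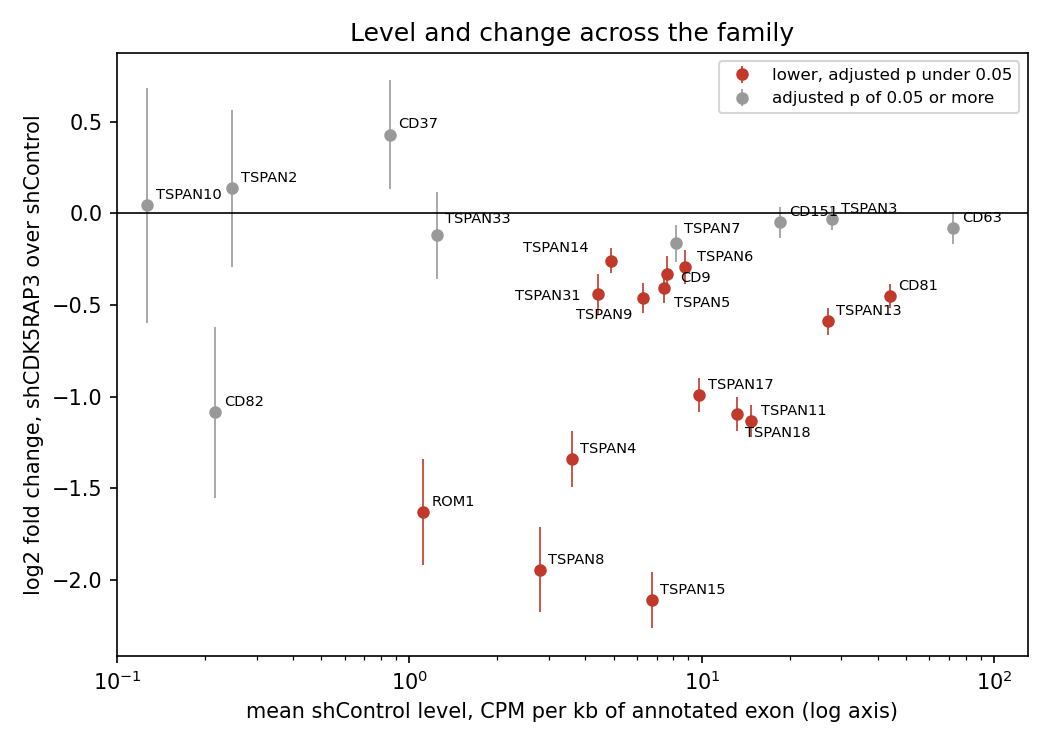
Log2 fold change with 1 SE against the mean shControl level in CPM per kb of annotated exon (log axis) for the 24 tested tetraspanins, red where the adjusted p was under 0.05. Both the most and the least abundant members include genes near 0. The largest falls, in TSPAN15, TSPAN8 and ROM1, are at levels of 6.76, 2.79 and 1.11 CPM per kb, and ROM1 has the lowest level among the red points.

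Taken over all tested members, size of change did not follow level. Over the 24 tested members the log2 of the mean CPM and the log2 change had a Pearson r of 0.13 and a Spearman rank correlation of 0.03. These describe genes measured in the same 4 libraries, which are not independent replicates, and the low genes carry the largest counting error. Among the lower members alone, the largest falls were in those with the lowest mean shControl CPM. These were TSPAN15 (17.9 CPM), TSPAN8 (7.02), ROM1 (2.78) and TSPAN4 (20.9). Per kb of annotated exon, however, TSPAN15 (6.76 in shControl cells) lay above TSPAN31 (4.41), which fell less.

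ROM1, which with PRPH2 shapes the discs of photoreceptors, had 27 and 25 counts in shCDK5RAP3 cells, against 87 and 74 counts in shControl cells (log2 change -1.63, SE 0.29, edgeR adjusted p = 0.00196). PRPH2 had no counts in any library. Of 7 photoreceptor markers 4 were expressed well enough to test, and 2 of them, CNGB1 (log2 change -1.31) and PDE6B (-0.60), were lower. Their summed level over the 7 was 9.63 and 10.4 CPM in shCDK5RAP3 cells, against 17.8 and 19.1 CPM in shControl cells. All libraries came from the SK-N-BE(2) line, so these are levels of marker transcripts in that line. Any link with the ROM1 value was not tested.

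The leukocyte members were low or absent. CD37 had 128 and 152 counts in shCDK5RAP3 cells, against 136 and 71 counts in shControl cells, so that the groups overlapped (log2 change 0.43, SE 0.30, edgeR adjusted p = 0.278). Without shControl replicate 1 its change was 0.97 and passed (0.0124), the only rise of a tetraspanin under any alternative. CD53 had 4 counts in 1 shCDK5RAP3 library and 0 elsewhere, and TSPAN32 had 7 and 8 counts in shCDK5RAP3 cells, against 17 and 9 counts in shControl cells. The 11 leukocyte markers summed to 3.08 and 1.49 CPM in shCDK5RAP3 cells, against 3.66 and 3.85 CPM in shControl cells, and CD3E, ITGAM and CD48 were at 0 in every library.

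Of the 9 members not tested, 5 had no counts in any library, namely TSPAN1, TSPAN16, the uroplakins UPK1A and UPK1B of the bladder lining, and PRPH2. The other 4 were CD53, TSPAN32, TSPAN19 and TSPAN12. TSPAN12, which works with the receptor FZD4 in norrin signalling of retinal vessels, had 11 and 0 counts in shCDK5RAP3 cells, against 8 and 6 counts in shControl cells, too few to compare. Over all tested genes, 19.7% were higher and 21.8% lower. Of 7 tested norrin and FZD4 signalling genes, 3 were higher and 2 lower, with a median log2 change of -0.07. The number higher was 1 without shCDK5RAP3 replicate 1 or replicate 2, without shControl replicate 2, without a filter and at an adjusted p of 0.01. The number lower was 1 without either shCDK5RAP3 library, without a filter, at 0.01 and with upper-quartile factors. The target gene AXIN2 was the furthest (mean 2.54 CPM in shCDK5RAP3 cells and 7.67 CPM in shControl cells), followed by FZD4 (log2 change 0.60), DVL3 (0.39) and DVL1 (-0.26). FZD4 lost its call when shCDK5RAP3 replicate 1 (edgeR adjusted p = 0.116), shCDK5RAP3 replicate 2 (0.205) or shControl replicate 2 (0.154) was left out, or the filter on low counts was dropped (0.182). DVL1 lost it in the same settings (edgeR adjusted p = 0.325, 0.0854, 0.13 and 0.199, in that order) and with upper-quartile factors (0.0628).

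Markers of some other cell types moved with these falls. The 5 fibroblast markers summed to 166 and 155 CPM in shCDK5RAP3 cells, against 471 and 452 CPM in shControl cells. Of the 5, 4 were lower, against 21.8% of all tested genes. The 7 urothelial and epithelial markers summed to 2.49 and 3.41 CPM in shCDK5RAP3 cells, against 6.53 and 7.16 CPM in shControl cells, with KRT5, CDH1, UPK3A and UPK3B at 0 in every library. The 4 Schwann cell markers summed to 1.51 and 2.13 CPM in shCDK5RAP3 cells, against 3.84 and 3.10 CPM in shControl cells, with S100B lower and SOX10 at 0 in every library. The 5 endothelial markers summed to 1.26 and 1.69 CPM in shCDK5RAP3 cells, against 2.00 and 1.38 CPM in shControl cells, which overlapped. Of these, CDH5 had 0 and 0 counts in shCDK5RAP3 cells and 17 and 11 counts in shControl cells, VWF had 29 and 47 counts in shCDK5RAP3 cells and 35 and 29 counts in shControl cells, and PECAM1, KDR and TIE1 had at most 6 counts in any library. All libraries came from an established neuroblastoma line, so these are levels of marker transcripts in that line. Any link with the tetraspanin values was not tested. In bulk RNA, fewer cells with a transcript and less of it per cell cannot be told apart.

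By position, 14 of the 33 members lie on chromosomes 11 and 12, with 7 on each. Of the tested members, 4 of 6 on chromosome 11, 5 of 6 on chromosome 12 and 6 of 12 elsewhere were lower. Over all chromosomes, 62.5% of the tested members and 21.8% of all tested genes were lower. The members per chromosome are too few to read a pattern of position, and none was tested. CD151 ends 2976 bases before TSPAN4 on chromosome 11, and CD151 did not pass (log2 change -0.05) while TSPAN4 had a change of -1.34; the difference between them was not tested. POLR2L, a subunit gene of RNA polymerases on the opposite strand, overlaps the end of CD151 and lies 262 bases from TSPAN4. POLR2L had 85.8 and 95.7 CPM in shCDK5RAP3 cells, against 52.8 and 60.1 CPM in shControl cells (log2 change 0.68, SE 0.09, edgeR adjusted p = 0.000309), and CHID1 on the far side was also higher (0.37, edgeR adjusted p = 0.00194). TSPAN18 likewise sits beside TP53I11, which overlaps it on the opposite strand and had 95.7 and 95.9 CPM in shCDK5RAP3 cells, against 48.8 and 47.7 CPM in shControl cells (log2 change 0.99, SE 0.07, edgeR adjusted p = 1.02e-05).

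At TSPAN8 the neighbours moved the same way. LGR5, a receptor for R-spondins that overlaps the annotated TSPAN8 locus, had 89.8 and 85.6 CPM in shCDK5RAP3 cells, against 201 and 184 CPM in shControl cells (log2 change -1.14, SE 0.07, edgeR adjusted p = 6.88e-06). PTPRR, 204241 bases away on the other side, had 41.0 and 38.5 CPM in shCDK5RAP3 cells, against 122 and 107 CPM in shControl cells (log2 change -1.53, SE 0.08, edgeR adjusted p = 3.72e-06). Beside TSPAN15, TACR2 had too few counts to test and NEUROG3 had none. Beside TSPAN11, DDX11 was lower (-0.34, edgeR adjusted p = 0.00409) and CAPRIN2 did not pass (-0.09). Beside ROM1, B3GAT3 was lower (-0.71, edgeR adjusted p = 0.000106).

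Some values are uncertain, since no source used here says whether strand was used in counting. TSPAN31 shares 25.4% of its exon bases with CDK4 on the other strand, which had 356 and 406 CPM in shCDK5RAP3 cells and 303 and 331 CPM in shControl cells, far above TSPAN31, and was higher where TSPAN31 was lower. ROM1 shares 24.8% of its exon bases with EML3 on the other strand (30.6 and 31.7 CPM in shCDK5RAP3 cells, against 37.1 and 43.0 CPM in shControl cells, log2 change -0.36). The AGAP2 gene covers 3.51% of TSPAN31 on the other strand and was lower (log2 change -1.72). TSPAN7 shares 21.7% with AF241726.2, a gene on its own strand at 0 in every library. POLR2L covers 6.53% of CD151, TEAD2 7.67% of CD37 (log2 change 0.03) and NPLOC4 0.759% of TSPAN10, all on the other strand. NPLOC4 had 214 and 212 CPM in shCDK5RAP3 cells, against 142 and 142 CPM in shControl cells, far above TSPAN10. C11orf21 covers 3.72% of TSPAN32 and was at 0 in both shCDK5RAP3 libraries, against 0.553 and 0.447 CPM in shControl cells, and AC083800.1, beside UPK1B, was at 0 throughout. Outside their own loci, no member shared more than 1.19% of its 75-base transcript words with another annotated gene.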

How the data were processed

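Gene expression was measured by RNA-seq in 4 libraries of SK-N-BE(2) cells. The authors deposited raw counts, whole numbers for each Ensembl gene with no scaling. The tools HISAT2 2.2.0 and StringTie and the build hg38 are listed, without roles, per the submitters' processing notes. No source used here gives the annotation release, the strand setting or the handling of multi-mapping reads. Sample titles gave the groups and replicate numbers, and columns were matched to samples by the labels' descriptions.

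Identifiers were matched to GENCODE 29 (GRCh38): 56591 of 64252 rows matched, and the rest stayed in library sizes and tests. In R 4.3.3, edgeR 4.0.16 was run with its quasi-likelihood test, TMM scaling and filterByExpr on the groups, which kept 18775 genes. P-values were adjusted by Benjamini-Hochberg across the whole tested table, and calls were made at 0.05. Log2 fold changes are shCDK5RAP3 over shControl, and SE is the log2 change divided by the square root of F. The script was tested on simulated data. The alternatives were other scaling, filters of none or a CPM of at least 1 in 2 libraries, a robust fit, DESeq2 1.42.0, limma-trend (limma 3.58.1, prior count 2), a replicate block, calls at 0.01, and leaving out 1 library at a time.

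The members, the partner and marker lists and the 3′ UTR words were chosen with earlier results of these data known. Named genes were all members, ADAM10, IGSF8, PTGFRN, up to 4 members of each partner list with the largest change that passed, and neighbours or overlapping genes of members. CDH2, ITGB1, SDCBP, LAMP1 and LAMP2 were named after their values were seen. Where a library is left out, the lone library of its group is assumed to vary like the other group. Levels of some single marker genes are not reported here.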

Additional observations from a re-analysis of the deposited data

How the results depend on the processing

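Of the 15 tetraspanins that were lower, 10 stayed lower and past the threshold under all 14 alternatives, and TSPAN14, TSPAN5, TSPAN6, CD9 and TSPAN31 lost the call under at least 1. The number lower ranged from 10 to 15 when 1 library was left out (10 without shCDK5RAP3 replicate 2) and was 11 at a threshold of 0.01, and the number higher ranged from 0 to 1. Over all genes, 2522 were lower and 1966 higher without a filter on low counts, and 2421 were higher at 0.01. With 1 library left out, 2196 to 3813 genes were lower and 1556 to 3516 higher. Over all partner lists together, 12 genes were higher, against 6 without a filter and 7 to 12 with 1 library left out. The cause of these losses was not tested, although fits with a lone library have fewer samples.

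The replicate block left the tetraspanin count at 15, with 4718 genes lower and 4430 higher in all. Equal replicate numbers had deviations that correlated at 0.147, but with 2 pairs and no label that ties them this pairs no samples. Signs changed for members near 0. TSPAN3 was at 0.0014 with upper-quartile factors, and with 1 library left out the log2 change ranged from -0.064 to 0.0085 for TSPAN3, from -0.185 to 0.0226 for CD63, from -0.155 to 0.0554 for CD151, from -0.381 to 0.106 for TSPAN33, from -0.247 to 0.654 for TSPAN2 and from -0.818 to 0.987 for TSPAN10. CDK5RAP3 ranged from -0.77 to -0.60. Depth limits TSPAN10, TSPAN2 and CD82, each at about 1 CPM or less.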

Other observations

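The annotated 3′ UTRs of tetraspanins were searched for the 7-base words AACACCT and ACACCTA, which an earlier look at these data had linked to falls. Either word was present in the longest annotated 3′ UTR of 15.3% of 13560 tested protein-coding genes and of 24.6% of the 3600 that were lower. As the words were picked from these same data, that difference is no separate evidence of a link. Among the 33 tetraspanins 3 held one, namely TSPAN12, TSPAN14 and TSPAN3, with log2 changes of -0.26 in TSPAN14 and -0.03 in TSPAN3 and too few counts in TSPAN12. Of the 15 lower members 1 (TSPAN14) held a word, and none of the 6 of these 15 that fell at least 2-fold did. UTR length differs between genes, and this is a count of letters with no test. The tetraspanins are too few to tell their share from that of all genes.

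Among vesicle genes outside the family, the lysosomal membrane proteins LAMP1 and LAMP2 went opposite ways. LAMP1 had 252 and 249 CPM in shCDK5RAP3 cells, against 180 and 175 CPM in shControl cells (log2 change 0.50), and LAMP2 had 52.6 and 51.1 CPM in shCDK5RAP3 cells, against 75.4 and 76.5 CPM in shControl cells (-0.55), with edgeR adjusted p = 0.000225 and 0.000265. They were named after their values were seen.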
